A study of Mus musculus with 8 samples.

Results

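The Toll-like receptors Tlr1, Tlr2, Tlr4, Tlr5, Tlr6, Tlr7, Tlr8, Tlr9 and Tlr13 and the lipopolysaccharide co-receptor Cd14 were examined in mouse blood monocytes. The 10 genes were chosen by name. Each was read from a probe set annotated to that gene alone, and where a gene had several, the one brightest on average across all 8 arrays was used. All 10 were measured, by 15 probe sets, among 18193 genes and 34945 probe sets in all, and 9 of them lay above the background level of 6.98 log2 units in at least 1 group. That level is the 95th percentile of 114 genes of smell, taste, pheromone sensing and hair keratin partners, which monocytes are not known to use.

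The monocytes came from male C57BL/6 mice given fluorescent latex beads of 1 µm intravenously and were sorted 4 days later. The 4 groups were Gr1lo monocytes (Ly-6C low, nonclassical) with beads, Gr1lo monocytes without beads, Gr1hi monocytes (Ly-6C high, classical) with beads and Gr1hi monocytes without beads, with 2 arrays each. The labels call the arrays of a group biological replicates, without the number of mice behind each. The labels are at odds over phagocyte depletion with clodronate-loaded liposomes. In the design text it precedes the beads by 3 days in all mice, while in the treatment protocol it belongs to the labelling of Gr1hi cells and is left out for Gr1lo cells. Under the second description, subset and pretreatment cannot be told apart. Per the design text, cells with and without beads were sorted from injected mice, so no group stands for untouched mice.

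Toll-like receptors are transmembrane sensors of microbial molecules. Those at the cell surface bind lipids and proteins of the microbial envelope: Tlr2 pairs with Tlr1 or Tlr6 to bind lipopeptides, Tlr4 binds lipopolysaccharide handed over by Cd14, and Tlr5 binds flagellin. Tlr7, Tlr8, Tlr9 and Tlr13 sit in endosomes and bind nucleic acids, with Tlr9 reading unmethylated CpG DNA and Tlr13, a receptor that mice have and humans lack, reading bacterial ribosomal RNA. Classical monocytes are known for leaving the blood at sites of infection, and nonclassical monocytes for patrolling the vessel wall and for responding to nucleic acids through Tlr7.

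The arrays matched their labels by marker genes. The 6 pan-monocyte markers, Csf1r and Lyz2 among them, were above background in all groups. The mean of 8 nonclassical markers lay between 11.79 and 12.10 log2 units on the Gr1lo arrays, against 8.69 to 9.23 on the Gr1hi arrays. The mean of the 3 classical markers measured lay between 9.08 and 11.00 on the Gr1lo arrays, against 12.46 to 12.83 on the Gr1hi arrays. Array medians lay between 6.12 and 6.19, the correlation across probe sets within a group was 0.9935 to 0.9963, and no pair of arrays was identical. The 2 Gr1lo arrays without beads stood apart from each other in tissue macrophage markers: the mean of 8 such markers was 8.70 on array 1 and 7.07 on array 2. The sorted cells are bulk samples, in which fewer cells of a type and less RNA per cell cannot be told apart.

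Which receptors set nonclassical apart from classical monocytes? Of the 4 endosomal receptors, Tlr7, Tlr13 and Tlr8 were higher in Gr1lo cells, by 1.80-fold, 1.47-fold and 1.25-fold averaged over bead state. Of the 6 surface genes, Tlr2 and Tlr5 were lower in Gr1lo cells, by 1.78-fold and 1.57-fold. Tlr1 and Tlr6 were also called higher in Gr1lo cells, by 1.28-fold and 1.19-fold, so Tlr1 differed by slightly more than Tlr8. Tlr9 was called lower, by 1.19-fold. Tlr4 and Cd14 were not called. In this comparison 5 of 10 genes rose and 3 fell at a Benjamini-Hochberg adjusted p under 0.05 in limma, against 35.6% of all genes (14.8% higher, 20.9% lower) and 56.2% of genes with a mean above background. The median difference of the 10 was 0.15 log2 units, against -0.05 over all genes.

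**Figure D1:**
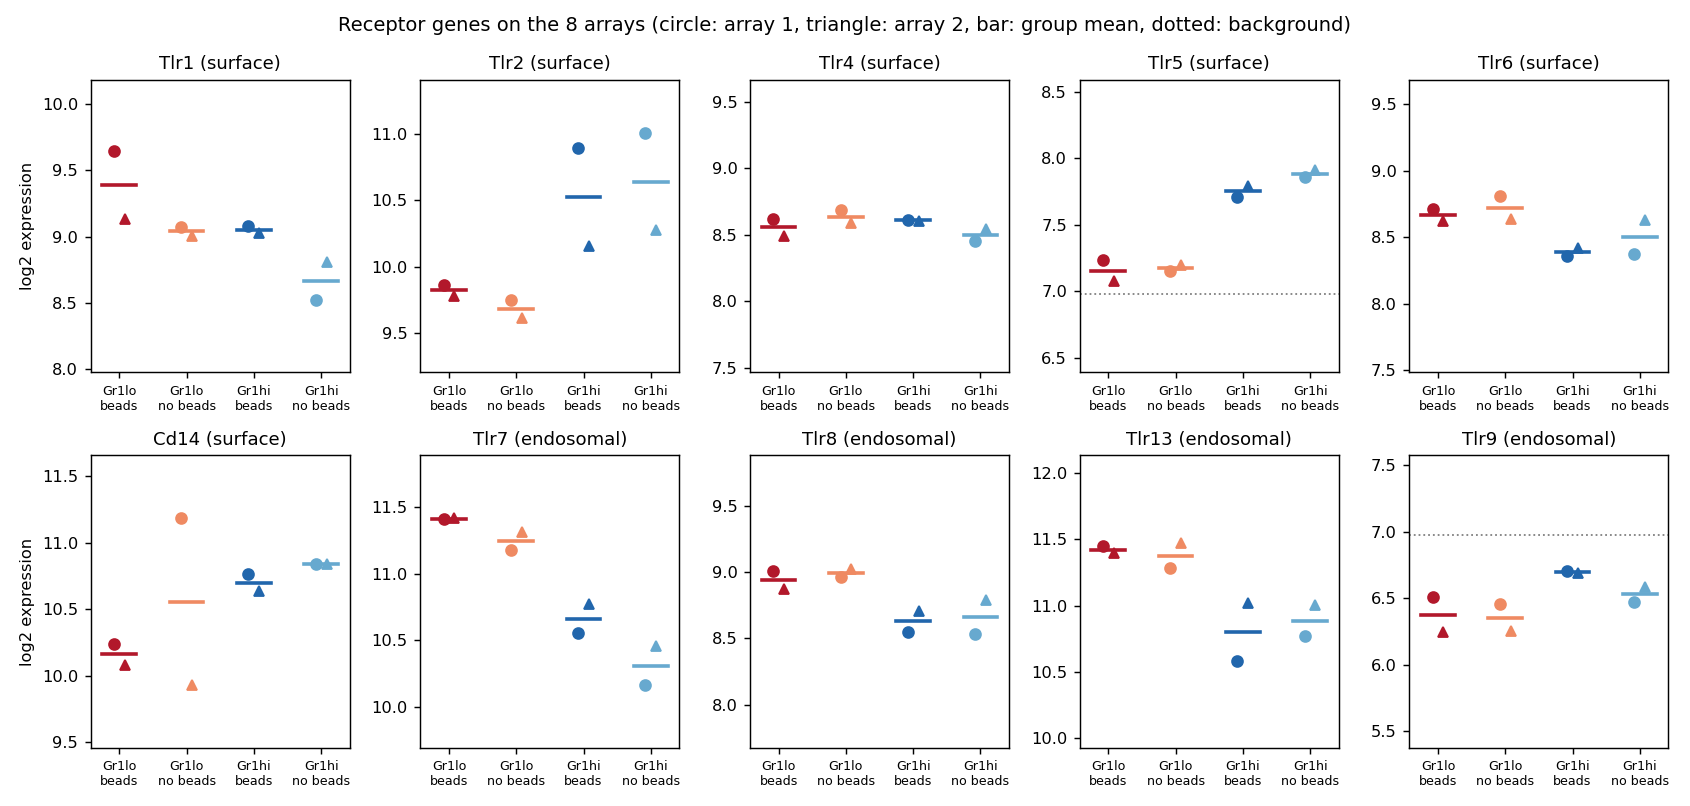
Log2 expression of the 10 genes on each of the 8 arrays, by group; circles are array 1, triangles array 2 and bars the group means, each panel spans the same range on its own axis, and the dotted line is the background level of 6.98. Tlr7, Tlr8 and Tlr13 lie higher on all Gr1lo arrays than on all Gr1hi arrays, and Tlr2 and Tlr5 lower.

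Tlr7, the endosomal sensor of single-stranded RNA, was at 11.41 and 11.42 log2 units in Gr1lo cells with beads and at 11.18 and 11.32 in Gr1lo cells without. It was at 10.55 and 10.77 in Gr1hi cells with beads and at 10.16 and 10.45 in Gr1hi cells without. Every Gr1lo array lay above every Gr1hi array, and the order of the 4 groups ran from Gr1lo with beads down to Gr1hi without beads with no overlap between neighbours. The subset difference was 0.75 ± 0.12 with beads (SE; limma adjusted p = 0.00201), 0.94 ± 0.12 without (adjusted p = 0.000833) and 0.85 ± 0.09 on average (adjusted p = 9.06e-05). Its size depended on the probe set. The 2 dimmer Tlr7 probe sets differed by 1.60 ± 0.09 and 1.66 ± 0.08 on average, and the mean of the 3 probe sets by 1.37 (adjusted p = 2.30e-06 in limma).

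Tlr13, the sensor of bacterial ribosomal RNA, was at 11.45 and 11.39 in Gr1lo cells with beads and at 11.28 and 11.47 in Gr1lo cells without. It was at 10.59 and 11.02 in Gr1hi cells with beads and at 10.77 and 11.01 in Gr1hi cells without. The subsets did not overlap, while the bead groups of each subset did. The difference averaged 0.55 ± 0.11 (limma adjusted p = 0.00337), with 0.62 ± 0.15 in cells with beads (adjusted p = 0.0152) and 0.49 ± 0.15 in cells without (adjusted p = 0.0463). The call in cells without beads was lost when any 1 of 6 arrays was left out, which took the difference to 0.37 without Gr1hi array 1 without beads (adjusted p = 0.234), to 0.39 without Gr1lo array 2 without beads, to 0.59 without Gr1lo array 1 without beads and to 0.61 without Gr1hi array 2 without beads. Leaving out either Gr1lo array with beads kept it at 0.49 with an adjusted p of 0.068. The call in cells with beads was lost without Gr1hi array 1 with beads (0.41, adjusted p = 0.0968) and without Gr1lo array 1 (0.59) or array 2 (0.65) with beads.

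Tlr8, the neighbour of Tlr7 on the X chromosome in the GRCm38.p6 annotation with no gene between them, was at 9.01 and 8.87 in Gr1lo cells with beads and at 8.96 and 9.02 in Gr1lo cells without. It was at 8.55 and 8.71 in Gr1hi cells with beads and at 8.53 and 8.79 in Gr1hi cells without. The subsets again did not overlap. The average difference of 0.32 ± 0.08 was called (limma adjusted p = 0.0119), while the differences with beads (0.31 ± 0.11, adjusted p = 0.0756) and without beads (0.34 ± 0.11, adjusted p = 0.0612) were not. Without beads it was called in 5 of 18 alternative settings, at limma adjusted p down to 0.0245, and with beads in 2 of 19, down to 0.0268. A setting of the 5 leaves out Gr1hi array 2 without beads (0.47, adjusted p = 0.0431).

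Tlr9, the receptor of CpG DNA, was the endosomal member with the opposite sign and lay below background in all 4 groups. It was at 6.50 and 6.24 in Gr1lo cells with beads, 6.46 and 6.25 in Gr1lo cells without, 6.71 and 6.69 in Gr1hi cells with beads, and 6.47 and 6.58 in Gr1hi cells without. The averaged difference was -0.25 ± 0.08 (limma adjusted p = 0.0408), on a probe set below the background level. The call was lost without any 1 of 6 arrays, namely both Gr1hi arrays with beads (-0.25 for each), both Gr1hi arrays without beads (-0.28 and -0.22) and array 2 of either Gr1lo group (-0.18 with beads, -0.20 without). It was also lost with arrays centred on their medians (-0.23) and with cyclic loess (-0.22). A replicate term within each subset, added after the data were seen, gave -0.11 without a call. That value is the difference on array 1 of each group alone, not an adjusted average. Plasmacytoid dendritic cells and B cells are known for Tlr9. Of 6 measured plasmacytoid markers 2 were above background, Siglech and Ccr9 not among them, and of 7 B cell markers 3 were, with Ms4a1, Cd79a, Pax5 and Blk below. The mean of the plasmacytoid markers lay between 6.96 and 7.03 in Gr1lo cells with beads, 6.71 and 6.88 in Gr1lo cells without, 7.04 and 7.14 in Gr1hi cells with beads, and 7.08 and 7.11 in Gr1hi cells without. The B cell markers averaged 7.28 and 7.41, 7.11 and 7.12, 7.17 and 7.24, and 7.38 and 7.29 in the same groups. These means join markers that differed in direction. In the same order of groups, Ighm averaged 11.14, 11.26, 11.94 and 12.18, Cd79b 8.32, 7.55, 7.10 and 7.09, and Vpreb3 7.26, 7.14, 7.38 and 7.43. The plasmacytoid marker Bst2 averaged 8.94, 8.87, 10.18 and 10.21, and Tcf4 9.13, 9.14, 9.16 and 9.28. The part of such cells in the Tlr9 values was not tested.

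The promoter windows of Tlr13 and Tlr8 are shown because these 2 endosomal genes were higher in Gr1lo cells on all arrays and have an entry among the RefSeq promoters of GRCm38.p6, which held 7 of the 10 genes. Each window runs from 250 bases before to 50 bases after the gene start, and capitals mark motifs that a search of both strands found. The motifs searched were the PU box GAGGAA of the myeloid factor PU.1, the interferon regulatory factor motif, the AP-1 motif TGANTCA, the C/EBP motif TTGCNNAA and the kappa B motif of NF-kB. They match 28.3%, 3.44%, 7.81%, 10.8% and 4.51% of all 32851 windows, and no match to one overlapped a match to another in the windows of the 7 genes.
Tlr13 (chrX:106143025-106143324, plus strand): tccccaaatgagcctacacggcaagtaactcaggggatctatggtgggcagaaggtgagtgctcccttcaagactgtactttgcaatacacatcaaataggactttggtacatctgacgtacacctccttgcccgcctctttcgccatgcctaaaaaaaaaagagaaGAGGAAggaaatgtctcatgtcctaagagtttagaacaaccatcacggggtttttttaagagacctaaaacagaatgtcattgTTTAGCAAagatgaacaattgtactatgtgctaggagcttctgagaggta
Tlr8 (chrX:167264280-167264579, minus strand): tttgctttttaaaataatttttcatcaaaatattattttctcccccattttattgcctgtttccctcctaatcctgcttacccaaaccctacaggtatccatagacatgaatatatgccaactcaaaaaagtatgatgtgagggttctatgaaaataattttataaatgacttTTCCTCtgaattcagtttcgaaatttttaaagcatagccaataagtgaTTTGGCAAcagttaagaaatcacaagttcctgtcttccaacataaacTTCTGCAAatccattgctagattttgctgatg
Each of these windows held 1 PU box, and C/EBP motifs stood at 1 place in Tlr13 and at 2 in Tlr8. The matches are descriptions of the letters, and binding was not measured.

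Among the surface receptors, Tlr2, the common partner in lipopeptide recognition, was at 9.86 and 9.78 in Gr1lo cells with beads and at 9.75 and 9.61 in Gr1lo cells without. It was at 10.89 and 10.16 in Gr1hi cells with beads and at 11.00 and 10.28 in Gr1hi cells without. All Gr1lo arrays lay below all Gr1hi arrays, and in Gr1hi cells array 1 lay above array 2 in both bead states. The averaged difference was -0.83 ± 0.19 (limma adjusted p = 0.00787). The fall of 0.96 ± 0.26 in cells without beads was called (adjusted p = 0.0301), and the difference of -0.70 ± 0.26 in cells with beads was not (adjusted p = 0.0877). Without Gr1hi array 1 without beads the first was -0.60 (adjusted p = 0.177), and it lost its call also without either Gr1lo array without beads (-1.03 and -0.89) or either Gr1lo array with beads (-0.96 for each). Without Gr1hi array 2 with beads the second was -1.07 and called (limma adjusted p = 0.0248), as it was without either Gr1hi array without beads (-0.70 for each). Both kept their direction in all of these.

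Neutrophils are known to carry Tlr2 and Cd14, and neutrophil markers moved with the subsets. All 10 such markers measured had lower means in Gr1lo cells on average and 9 were called lower, against 20.9% of all genes, S100a8 and S100a9, which classical monocytes also express, among them. Their mean level lay at 6.95 and 7.09 in Gr1lo cells with beads, 7.13 and 6.89 in Gr1lo cells without, 8.85 and 8.53 in Gr1hi cells with beads, and 9.40 and 9.13 in Gr1hi cells without. Cxcr2 was below background in all groups, and 9 of the 10 were above it in at least 1. In Gr1hi cells the marker mean, like Tlr2, was higher on array 1 than on array 2 in both bead states. Marker by marker, array 1 was the higher for 9 of 10 with beads and for 4 of 10 without (Camp, Ltf, Ngp and Csf3r). Their part in the Tlr2 difference was not tested.

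Tlr5, the flagellin receptor, was at 7.24 and 7.08 in Gr1lo cells with beads and at 7.16 and 7.20 in Gr1lo cells without. It was at 7.71 and 7.79 in Gr1hi cells with beads and at 7.86 and 7.91 in Gr1hi cells without. The Gr1lo arrays sat close to the background level, and none reached a Gr1hi array. Tlr5 fell by 0.60 ± 0.09 with beads (limma adjusted p = 0.00144), by 0.71 ± 0.09 without (adjusted p = 0.000771) and by 0.65 ± 0.06 on average (adjusted p = 7.32e-05).

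The promoter windows of Tlr2 and Tlr5, the 2 surface genes lower in Gr1lo cells on all arrays, are shown in the same way.
Tlr2 (chr3:83841559-83841858, minus strand): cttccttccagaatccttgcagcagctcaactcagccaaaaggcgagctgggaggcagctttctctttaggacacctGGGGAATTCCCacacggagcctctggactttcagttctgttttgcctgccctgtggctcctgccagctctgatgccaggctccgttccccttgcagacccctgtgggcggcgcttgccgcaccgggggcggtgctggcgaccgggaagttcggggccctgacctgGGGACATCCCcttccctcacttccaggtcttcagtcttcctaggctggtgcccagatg
Tlr5 (chr1:182954538-182954837, plus strand): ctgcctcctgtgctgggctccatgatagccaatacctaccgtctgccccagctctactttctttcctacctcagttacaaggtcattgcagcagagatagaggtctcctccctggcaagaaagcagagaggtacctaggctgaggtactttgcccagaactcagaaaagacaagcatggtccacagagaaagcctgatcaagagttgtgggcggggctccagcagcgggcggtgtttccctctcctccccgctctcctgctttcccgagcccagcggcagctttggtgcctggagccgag
The Tlr2 window held 3 matches to the kappa B motif, of which 2 overlapped each other, and none to the other 4 motifs. The Tlr5 window held none of the 5 motifs in these letters.

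The 2 lipopeptide partners of Tlr2, Tlr1 and Tlr6, lie next to each other on chromosome 5 in the GRCm38.p6 annotation and ran opposite to Tlr2. Tlr1 was at 9.64 and 9.13 in Gr1lo cells with beads, 9.07 and 9.01 in Gr1lo cells without, 9.08 and 9.02 in Gr1hi cells with beads, and 8.52 and 8.81 in Gr1hi cells without. Within each bead state the Gr1lo arrays lay above the Gr1hi arrays, but Gr1lo cells without beads and Gr1hi cells with beads overlapped. The averaged difference was 0.35 ± 0.12 (limma adjusted p = 0.0417), and neither single comparison was called (0.33 ± 0.16 with beads, 0.38 ± 0.16 without). Leaving out any 1 of 6 arrays ended the call, with values from 0.23 without Gr1lo array 1 with beads to 0.37 without Gr1lo array 2 without beads. The others were Gr1lo array 1 without beads, both Gr1hi arrays with beads and Gr1hi array 1 without beads (0.28). Single comparisons gained a call on leaving out Gr1lo array 2 with beads (0.59 with beads, limma adjusted p = 0.0228) or either Gr1lo array with beads (0.38 without beads).

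Tlr6 was at 8.71 and 8.62 in Gr1lo cells with beads, 8.81 and 8.63 in Gr1lo cells without, 8.36 and 8.42 in Gr1hi cells with beads, and 8.38 and 8.63 in Gr1hi cells without. Its groups were separate within each bead state and overlapped across them. The averaged difference was 0.25 ± 0.08 (limma adjusted p = 0.0348), with 0.28 ± 0.11 with beads and 0.22 ± 0.11 without, neither called. The average lost its call without Gr1lo array 1 or 2 with beads (0.23 and 0.27), Gr1lo array 1 without beads (0.20), Gr1hi array 1 or 2 with beads (0.23 and 0.26) or Gr1hi array 1 without beads (0.19).

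Tlr4, the lipopolysaccharide receptor, was nearly level. It was at 8.62 and 8.49 in Gr1lo cells with beads, 8.68 and 8.59 in Gr1lo cells without, 8.61 and 8.61 in Gr1hi cells with beads, and 8.45 and 8.54 in Gr1hi cells without. Every neighbouring pair of groups overlapped in the order of their means. The averaged subset difference was 0.04 ± 0.06 with a 95% interval from -0.10 to 0.18 (limma adjusted p = 0.647). Of its 4 probe sets, 2 were dim, and the other bright one differed by 0.04 ± 0.08.

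Cd14, which binds lipopolysaccharide and passes it to Tlr4, scattered most on the Gr1lo arrays without beads. It was at 10.24 and 10.08 in Gr1lo cells with beads, 11.18 and 9.93 in Gr1lo cells without, 10.76 and 10.63 in Gr1hi cells with beads, and 10.84 and 10.84 in Gr1hi cells without. Array 1 of the Gr1lo group without beads was the highest of all 8 arrays and array 2 the lowest. With beads the subsets did not overlap and differed by -0.54 ± 0.32 (limma adjusted p = 0.269), the spread being shared with the group that scattered. With those 2 arrays left out, an alternative added after the data were seen, the same difference was called (limma adjusted p = 0.00351), as it was with either 1 left out. In cells without beads the difference was -0.28 ± 0.32 (adjusted p = 0.574), -0.91 without array 1 (adjusted p = 0.00113) and 0.34 without array 2 (adjusted p = 0.0761). The average of -0.41 ± 0.23 was not called (adjusted p = 0.196), and was -0.73 and called without array 1 (adjusted p = 0.000153).

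Some tissue macrophage genes separated the same 2 arrays, and others did not. The complement gene C1qa was at 11.37 on array 1 and 8.16 on array 2 of Gr1lo cells without beads, C1qb at 12.06 and 9.37, and C1qc at 10.77 and 7.74. On the same arrays Mertk was at 8.04 and 6.16 and Cd163 at 7.25 and 4.61. Spic (7.73 and 7.79), Slc40a1 (6.24 and 6.39) and Vcam1 (6.14 and 6.31) were slightly higher on array 2. Gr1hi cells had tissue macrophage marker means of 8.11 and 8.30 with beads and 7.13 and 7.36 without, at Cd14 levels between 10.63 and 10.84. By group mean, 6 of the 8 markers were above background in at least 1 group, and Cd163 and Vcam1 in none. Gr1lo cells with beads were at 8.78 and 8.46 for the marker mean. The platelet gene Pf4 also separated the 2 Gr1lo arrays without beads, at 11.364 on array 1 and 7.695 on array 2. The other platelet genes listed (Ppbp, Itga2b, Gp9, Gp1bb and Treml1) were higher on array 2. The part of macrophage or platelet RNA in the Cd14 values was not tested.

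**Figure D2:**
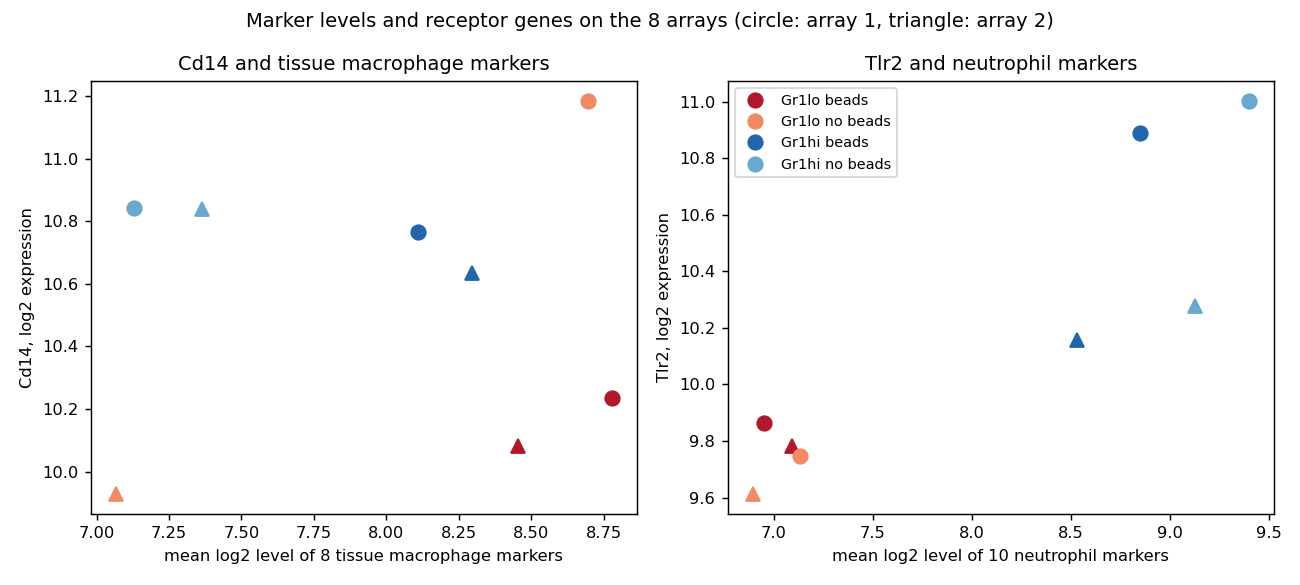
Cd14 against the mean of 8 tissue macrophage markers (left) and Tlr2 against the mean of 10 neutrophil markers (right), in log2 units, 1 point per array; circles are array 1 and triangles array 2. The 2 Gr1lo arrays without beads lie at opposite ends of the Cd14 axis, at 11.18 and 9.93, and the Gr1hi arrays lie highest on both axes of the Tlr2 panel.

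Surface and endosomal genes were set side by side through their differences, since levels of different probe sets cannot be compared. Averaged over bead state, the 4 endosomal members had a median difference of 0.44 log2 units, between -0.25 and 0.85, and the 6 surface members one of -0.19, between -0.83 and 0.35. In cells with beads the medians were 0.47 and -0.30, and in cells without beads 0.41 and -0.07. The endosomal class was not uniform, since Tlr9 went the other way, and the surface class had 3 members above and 3 below 0 on average. As the mean deviation of a class from its own 8-array mean, the endosomal genes were at 0.26 and 0.15 in Gr1lo cells with beads, 0.14 and 0.19 in Gr1lo cells without, -0.23 and -0.03 in Gr1hi cells with beads, and -0.35 and -0.12 in Gr1hi cells without. The surface genes were at -0.02 and -0.20, 0.04 and -0.24, 0.17 and 0.04, and 0.11 and 0.10 in the same groups. The endosomal means did not overlap between subsets, while the surface means did, through array 1 of Gr1lo cells without beads. No test was made of a class, because its members were named with results of these data known.

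**Figure D3:**
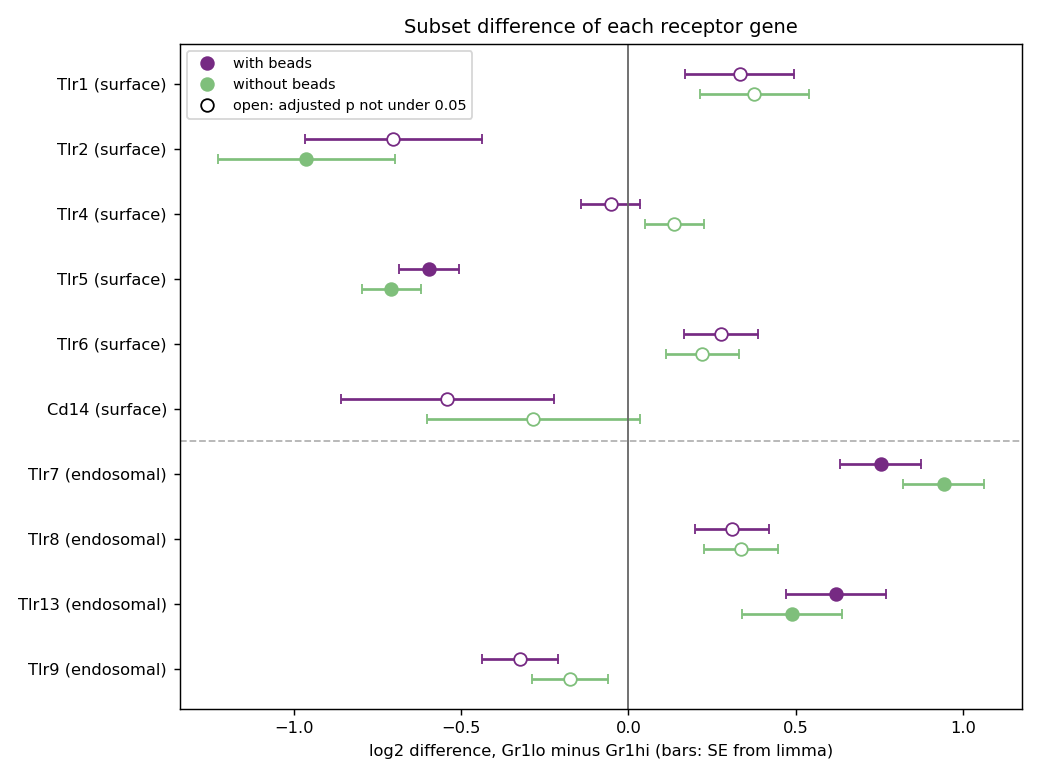
Log2 difference between Gr1lo and Gr1hi cells for each gene, in cells with beads and in cells without, with the standard error from limma; filled points passed an adjusted p under 0.05. The endosomal genes below the dashed line lie to the right of 0 except Tlr9, and the surface genes lie on either side.

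Taken 1 bead state at a time, 3 of the 10 genes were called with beads (Tlr7, Tlr13, Tlr5), against 26.5% of all genes (11.8% higher, 14.6% lower) and 44.8% of those with a mean above background. Without beads 4 were called (the same 3 and Tlr2), against 23.6% (10% higher, 13.6% lower) and 39.1%. These shares are near the background, as differences between the subsets are common among all genes. Groups did not overlap for 9 of the 10 genes in either bead state, where 61.4% of all genes did not with beads and 62% without. Between all 4 Gr1lo and all 4 Gr1hi arrays 5 of 10 did not overlap, against 33.6% of all genes.

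Do monocytes that carried beads differ in these receptors from those that did not? No gene of the 10 was called in limma in Gr1lo cells, in Gr1hi cells or averaged over both, and 0 were called for the difference between the 2 bead effects. The background was low as well. In Gr1lo cells 0.225% of all genes were called (0.0824% higher, 0.143% lower) and 0.376% of those above background. In Gr1hi cells 0.247% were (0.148% higher, 0.0989% lower) and 0.387% of those above background. On average it was 0.764% (0.275% higher, 0.489% lower) and 1.3%, and for the difference between the bead effects 0.044% (0.011% higher, 0.033% lower) and 0.0683%. At an unadjusted p under 0.05 there were 0 of the 10 in Gr1lo cells, 2 in Gr1hi cells, 2 on average and 0 for the difference, and these 2 were Tlr1 and Tlr7. Some markers of other cells moved with bead state in both subsets. In Gr1lo cells classical markers averaged 9.21 and 9.08 with beads, against 11.00 and 10.70 without, and 7 conventional dendritic cell markers 7.38 and 7.35, against 8.24 and 8.21, with 4 of the 7 above background and Zbtb46, Xcr1 and Kmo below. The dendritic markers did not move together: 4 were lower with beads and 3 higher. Cd209a averaged 6.76 with beads and 9.90 without, and Itgax 12.04 and 11.73. Tissue macrophage markers averaged 8.78 and 8.46 in Gr1lo cells with beads, against 8.70 and 7.07 without. By group mean, 7 of these 8 markers were higher with beads in Gr1lo cells and 1 lower, and 2 were called higher. C1qa, C1qb and C1qc, among the 7, were nevertheless higher on array 1 without beads than on both arrays with beads. Slc40a1 averaged 9.30 with beads and 6.32 without. In Gr1hi cells tissue macrophage markers averaged 8.11 and 8.30 with beads, against 7.13 and 7.36 without, nonclassical markers 9.14 and 9.23, against 8.69 and 8.79, and neutrophil markers 8.85 and 8.53, against 9.40 and 9.13. Of the 10 neutrophil markers 1 was called lower with beads in Gr1hi cells. So were 3 of 6 eosinophil or basophil markers, all below background. Of 6 T cell markers 1 was called higher there, and Cd28 averaged 7.31 with beads and 6.38 without. In Gr1lo cells 1 of 7 natural killer cell markers was called lower with beads, and Klrd1 averaged 5.27 with beads and 7.67 without. The part of these markers in the bead differences was not tested.

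Tlr1 was higher with beads on all arrays of each subset. The difference was 0.35 ± 0.16 in Gr1lo cells (SE; 95% interval -0.03 to 0.72, limma adjusted p = 0.408) and 0.39 ± 0.16 in Gr1hi cells (0.02 to 0.76, adjusted p = 0.480). Tlr7 was also higher with beads on all arrays of each subset, by 0.17 ± 0.12 in Gr1lo cells (-0.11 to 0.44, adjusted p = 0.582) and 0.35 ± 0.12 in Gr1hi cells (0.08 to 0.63, adjusted p = 0.379). Averaged over subsets, the differences were 0.37 ± 0.12 for Tlr1 (adjusted p = 0.203) and 0.26 ± 0.09 for Tlr7 (adjusted p = 0.219). In Gr1hi cells the dimmer Tlr7 probe sets differed by 0.18 ± 0.13 and 0.14 ± 0.11. Non-overlap is common at this size, with 42.7% of all genes in Gr1lo and 44.2% in Gr1hi cells, against 3 of 10 (Tlr1, Tlr2, Tlr7) and 6 of 10 (Tlr1, Tlr4, Tlr7 and Tlr9 higher, Tlr5 and Cd14 lower) here.

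For the others the bead differences were small, and their intervals bound them. In Gr1lo cells Tlr4, Tlr5, Tlr6, Tlr8, Tlr9 and Tlr13 differed by -0.08 to 0.05 log2 units, with 95% intervals that all lay between -0.31 and 0.39. In Gr1hi cells the same 6 differed by -0.13 to 0.17, with intervals between -0.43 and 0.43. Tlr2 had wider intervals, from -0.46 to 0.75 in Gr1lo cells around 0.14 and from -0.72 to 0.49 in Gr1hi cells around -0.12. Missing the threshold does not show equal levels: differences of these sizes remain within the intervals.

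Cd14 differed by -0.40 ± 0.32 with beads in Gr1lo cells (limma adjusted p = 0.623) and by -0.14 ± 0.32 in Gr1hi cells (adjusted p = 0.934). The first value depended on both Gr1lo arrays without beads. Without array 2 of Gr1lo cells without beads it was -1.03 and called (limma adjusted p = 0.00328), and without array 1 it was 0.23 (adjusted p = 0.654). The difference between the bead effects was -0.26 ± 0.45, and -0.89 (adjusted p = 0.0426) and 0.37 without the same arrays. The average over subsets was -0.27 ± 0.23, and -0.58 (adjusted p = 0.00713) and 0.04 without them.

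**Figure D4:**
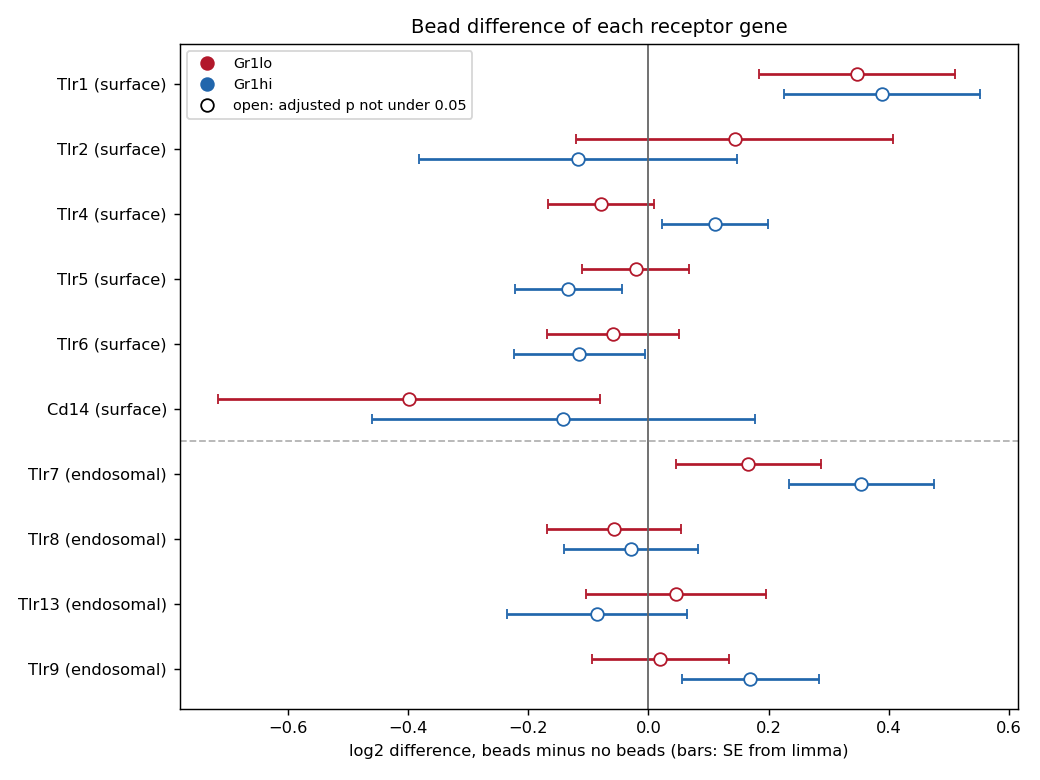
Log2 difference between cells with and without beads for each gene, in Gr1lo and in Gr1hi cells, with the standard error from limma; all points are open because none passed an adjusted p under 0.05. Tlr1 and Tlr7 lie to the right of 0 in both subsets, at 0.35 and 0.39 and at 0.17 and 0.35.

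How did the genes that serve these receptors compare between the subsets? A list of partner genes held 74 entries, of which 65 had a probe set annotated to them alone and 59 were above background in at least 1 group. Averaged over bead state 18 rose in Gr1lo cells and 22 fell, with 25 not called, where 14.8% of all genes rose and 20.9% fell. In all 40 of the 65 were called, against 35.6% of all genes and 56.2% of those with a mean above background, so the count is near the share among expressed genes. The median difference was -0.04, against -0.05 over all genes. For beads, 0 of the 65 were called in either subset in limma, and 1 was on average: Lgmn, the endosomal protease that cleaves nucleic-acid-sensing receptors, rose by 0.58 ± 0.09 (adjusted p = 0.0407). The comparisons between subsets and between bead states share arrays.

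Of 8 measured co-receptors and ligand carriers, 4 fell and 2 rose in Gr1lo cells, in a comparison that called 56.2% of genes above background. Ly96, the MD-2 subunit that Tlr4 needs to bind lipopolysaccharide, was at 9.37 and 9.19 in Gr1lo cells with beads, 9.57 and 9.45 in Gr1lo cells without, 9.82 and 9.73 in Gr1hi cells with beads, and 9.74 and 9.63 in Gr1hi cells without. It fell by 0.34 ± 0.07 (limma adjusted p = 0.00516), and no Gr1lo array reached a Gr1hi array. Lbp, which carries lipopolysaccharide to Cd14, fell by 1.24 and was below background in both Gr1lo groups, Cd300lf by 0.81 and Ly86, the MD-1 partner of Cd180, by 0.53, whereas Cd180 itself differed by 0.23 without a call. Cd36, a scavenger receptor that hands diacylated ligands to Tlr2 and Tlr6 and one of the nonclassical markers, averaged 11.90 with and 11.80 without beads in Gr1lo cells, against 6.86 and 5.58 in Gr1hi cells, both below background. Its measured difference of 5.63 (limma adjusted p = 1.49e-06) is therefore set against groups at background. Itgb2, the shared chain of leukocyte integrins, rose by 0.72. Itgam was called lower in cells with beads (-0.35) and not in cells without (0.06), and the difference between these was not called (adjusted p = 0.608).

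Of 16 measured chaperone, trafficking and processing genes, 8 fell and 3 rose, against the same 56.2%. Unc93b1, the escort that carries nucleic-acid sensors from the endoplasmic reticulum to endosomes, was at 10.31 and 10.46 in Gr1lo cells with beads, 10.92 and 10.52 in Gr1lo cells without, 11.11 and 11.03 in Gr1hi cells with beads, and 11.44 and 11.19 in Gr1hi cells without. It fell by 0.64 ± 0.10 (limma adjusted p = 0.00117), while Tlr7, Tlr8 and Tlr13 rose in the same cells. Hsp90b1, the chaperone of most Toll-like receptors, fell by 0.63, and its co-chaperone Cnpy3 differed by 0.19 without a call. Among enzymes of the endolysosome, Ctsl fell by 1.53, the exonuclease Pld3 by 0.93 and Lgmn by 0.44, and Ctsb and Ctss rose by 0.24 and 0.21. Lrrc59, Tmed7 and Rnase2a fell by 0.45, 0.19 and 0.29, the last below background. Slc15a4, an endolysosomal transporter needed for Tlr7 and Tlr9 signalling, rose by 0.56 ± 0.15, and Slc15a3 fell in cells without beads (-0.58), with -0.05 in cells with beads and no call for the difference between these (adjusted p = 0.633).

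The shared adaptor Myd88 was nearly level, at a difference of -0.06 ± 0.06 (limma adjusted p = 0.441). Ticam1, the adaptor of the interferon branch of Tlr4 and Tlr3, fell by 0.32 ± 0.11 (adjusted p = 0.0485), and Pik3ap1, which links the receptors to phosphoinositide 3-kinase, rose by 1.60 ± 0.09 (adjusted p = 3.30e-06). Tlr3 itself fell by 0.39 below background in all groups. Of 15 kinases and ligases 4 rose, namely Tab2 (0.96), Ikbkb (0.49), Ikbkg (0.35) and Tab3 (0.35), and 4 fell, namely Ikbke (-0.83), Peli2 (-0.56, below background in all groups), Ube2n (-0.45) and Map3k7 (-0.22). Peli1 fell in cells with beads (-0.37), with 0.06 in cells without and no call for the difference between these (adjusted p = 0.548).

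The 6 measured transcription factors were called, where 56.2% of genes above background were: Irf3 (0.60), Rela (0.29) and Irf5 (0.26) rose, and Irf8 (-0.45), Irf7 (-0.39) and Rel (-0.20) fell. Of 13 inhibitors 5 rose, namely Tnfaip3 (0.85), Dok3 (0.79), Tnip1 (0.58), Nfkbia (0.50) and Rnf216 (0.36), and Trim30a fell (-0.59). Tnfaip3, Tnip1 and Nfkbia encode A20, its binding partner and the IkB alpha protein, which restrain NF-kB. These genes were named because they were called in at least 1 comparison.

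**Figure D5:**
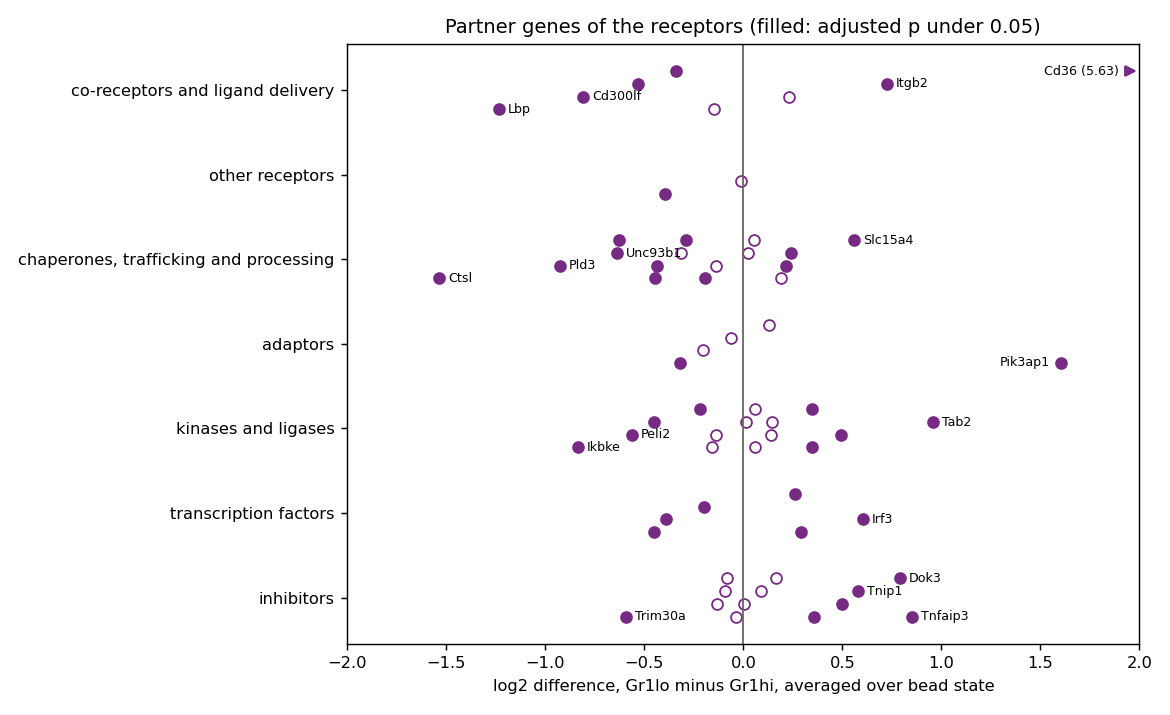
Log2 difference between Gr1lo and Gr1hi cells, averaged over bead state, for 65 partner genes in 7 groups; filled points passed an adjusted p under 0.05, points are spread vertically for legibility, and the arrow marks Cd36, which lies off the axis at 5.63. Calls of either sign occur among the co-receptors, processing genes, adaptors, kinases, transcription factors and inhibitors.

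Genes whose pattern over the 8 arrays was most like that of Tlr7, the member with the largest rise, were Havcr2, Cyb561, Fabp4, Tgm2 and Retreg1, with Pearson correlations of 0.990 to 0.983 among 1075 genes above background that varied by an SD of at least 0.5. Those most like Tlr2, the member with the largest fall, were Rnf213, Camp, Pwwp2b, Mlec and Creld2, at 0.960 to 0.936 among 1074 genes. Camp is one of the neutrophil markers. The arrays fall into 2 subsets, which set most of such a correlation, so the values describe these 8 arrays and carry no test.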

How the data were processed

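The deposited values are log2 expression, for 45101 probe sets on 8 arrays with none missing, and were used as they stood. Per the submitters' processing notes and the design text, Affymetrix mouse arrays were read with oligo, normalised by RMA and compared with limma; tool versions and chip definition: not given in the sources used here. Probe sets with 1 listed symbol (34945) were kept; 932 with several symbols, 9160 with none and 64 controls were left out. Entrez numbers matched 34741 probe sets to RefSeq GRCm38.p6, with 0 symbols changed. A model of 4 group means was fitted for each of 18193 genes over the 8 arrays (lmFit and eBayes, limma 3.58.1, R 4.3.3; prior degrees of freedom 4.48, residual 4), with Benjamini-Hochberg correction over all genes. SE is the moderated standard error, and intervals are at 95%. All tests were two-sided, and P values measure the spread between 2 arrays a group, whose small number limits the precision. The fit was tested on simulated data. The genes and lists were chosen with earlier results of these data known. All 10 genes were named, with partner genes called in at least 1 comparison and 6 set in advance, and the 5 genes most like the largest rise and fall. Tables and plots used pandas 2.3.3 and matplotlib 3.10.9 in Python 3.11.15. Promoter sequences are from RefSeq.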

Additional observations from a re-analysis of the deposited data

How the results depend on the processing

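The results were recomputed under 17 settings chosen with the comparisons and 2 added after the data were seen. Of 1243 values of single receptor genes under them, 1131 kept direction and side of the threshold, 39 lost a call, 27 gained one, 46 changed sign where neither value was called, and 0 values called with all arrays changed sign. Among the comparisons with sign changes, 4 of Cd14 were called in another setting (without array 1 or 2 of Gr1lo cells without beads). Tlr5 and Tlr7 kept their calls in all 17 settings of the averaged subset comparison, as did Tlr8 and Tlr13, with ranges of -0.69 to -0.59, 0.78 to 1.37, 0.26 to 0.45 and 0.45 to 0.69. The upper ends for Tlr5, Tlr8 and Tlr13 came from a replicate term within each subset, which gave the difference on array 1 alone. Leaving out 1 array at a time, between 5 and 7 receptors were called on average (8 with all arrays), 2 to 4 with beads (3) and 2 to 4 without (4). It gave 0 to 1 for beads in Gr1lo cells, on average and for the difference of bead effects (Cd14, without Gr1lo array 2 without beads), and 0 for beads in Gr1hi cells. With a replicate term within each subset, 6 receptors were called with beads. That setting compared the subsets at levels fitted for array 1, not at group means. Its count is therefore not an adjusted form of the main one, and the counts over settings include it. Bead differences in that setting did not depend on this choice of array. With the replicate number as a block over all arrays, 8, 4 and 4 were called on average, with and without beads, and 0 for beads. Tlr2 gained its call with beads (-0.70, limma adjusted p = 0.0238), and with trend and robust estimation Tlr2 lost its calls on average (adjusted p = 0.0503) and without beads (adjusted p = 0.114). Same-numbered arrays deviated together within a subset (r = 0.37 in Gr1lo and 0.60 in Gr1hi cells across 8788 genes) and little across subsets (0.04 to 0.09), a hint that the labels do not state. Over all genes, without Gr1lo array 2 without beads the bead calls were 354 in Gr1lo cells (41 with all arrays), 428 on average (139) and 167 for the difference (8), and without Gr1hi array 1 with beads they were 0 in Gr1hi cells (45). Without Gr1hi array 1 without beads, 2631 genes were called between subsets without beads (4288). Trend and robust estimation gave 127 bead calls in Gr1lo cells, 121 in Gr1hi cells and 17 for the difference, and the replicate term within subsets gave 332 on average. With the compared arrays alone, 12 were called for beads in Gr1lo cells. Centring and cyclic loess moved the median of all genes by less than 0.1. The causes were not tested. Receptors near the background level of 6.98, Tlr5 and Tlr9, are limited by signal.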
